A study of Mus musculus with 6 samples.

Results

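NF-kB is a family of transcription factors that hepatocytes and the immune cells of the liver use to answer cytokines, microbial products and injury. The genes described here are the receptors, signalling proteins, subunits and inhibitors of that pathway, together with target genes other than chemokines. They were taken from a written list of 49 genes, and 44 of these were measured, out of 12393 genes on the array. The other 5 (Nfkb1, Chuk, Ripk1, Irak2 and Traf3) had no probe set with that single symbol and were not analysed here. A gene with several probe sets was represented by the one with the highest mean over the 6 arrays.

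RNA came from primary mouse hepatocytes, 3 samples from Alb/AEG-1 mice and 3 from wild-type mice, all of a mixed B6/CBA strain. Alb/AEG-1 mice carry a transgene, under the albumin promoter that is active in hepatocytes, that raises AEG-1 (astrocyte elevated gene 1, encoded by Mtdh). Cells of both genotypes were plated on collagen, left untreated and harvested 24 h later, and the sources used here do not state the ages or sex of the mice. Each sample was hybridised to 1 Affymetrix array, and values are log2 expression levels per probe set. The comparison asks which genes of the pathway differ with AEG-1, which is known from other work to interact with the NF-kB subunit p65.

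In resting cells NF-kB dimers are held in the cytoplasm by inhibitors of the IkB family. Receptors for tumour necrosis factor, interleukin-1 and microbial products signal through adaptors and ubiquitin ligases to the kinase TAK1 and then to the IkB kinase complex, which marks IkB for destruction and frees the dimers. The freed dimers switch on their own inhibitors, among them IkB-alpha and A20, as well as cytokines, adhesion molecules and survival genes. Much of this control acts on proteins, so the RNA levels given here describe the supply of pathway components and the output of target genes, not the activity of the kinases or the location of the dimers.

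Mtdh was at 10.72, 10.40 and 10.81 on the transgenic arrays and at 8.75, 8.78 and 8.64 on the wild-type arrays, a difference of 1.92 (SE 0.10, limma adjusted p = 2.04e-05) at its brightest probe set. The 5 other Mtdh probe sets gave differences from -0.27 to 0.24, of which the last passed by a small margin when all probe sets were tested (adjusted p = 0.0495). Array medians lay between 5.61 and 5.64. None of 11 measured hepatocyte markers changed by limma (0 also at an unadjusted p under 0.05), where 15.9% of all genes changed. The differences of these markers ran from -0.07 to 0.06. As a sign of RNA integrity, the signal at the 3' end minus that at the 5' end of control transcripts was 0.10 against 0.07 for Gapdh (exact permutation p = 0.6, two-sided) and 0.88 against 0.89 for Actb (exact permutation p = 0.5), where 3 arrays against 3 cannot give a p under 0.1.

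The DNA in front of some of these genes holds the kB motif, the 10-base consensus that NF-kB dimers bind. RefSeq promoter windows (assembly GRCm38.p6, 250 bases before to 50 after a start) were found for 37 of the 44 genes, and 15 of these (40.5%) held the motif on either strand. The share was 12% among 9887 genes of the array that have a window, and 8.46% among all 32851 windows. Most of these genes were listed because they act in or answer to the pathway, so the share describes the list. The stretches shown lie in front of the genes that passed the test below and hold a match, taken in order of their p, and they let a reader see which of the changed genes carry the motif next to their start. The bases in capitals are the match, with overlapping matches run together. The stretch for Tlr2 is chr3:83841711-83841841 on the minus strand, that for Tlr3 is chr8:45410522-45410630 on the minus strand and that for Map3k7 is chr4:31963955-31964084 on the plus strand. The stretch for Rel is chr11:23770991-23771121 on the minus strand and that for Il1r1 is chr1:40266336-40266423 on the plus strand. Nfkbia, chr12:55492648-55492736 on the minus strand, was added after its values were seen because it is the classical feedback inhibitor.
Tlr2: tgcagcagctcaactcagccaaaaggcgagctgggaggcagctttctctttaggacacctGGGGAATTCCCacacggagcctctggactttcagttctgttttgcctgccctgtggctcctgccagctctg
Tlr3: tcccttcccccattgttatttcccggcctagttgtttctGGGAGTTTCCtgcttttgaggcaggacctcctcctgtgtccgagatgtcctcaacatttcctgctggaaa
Map3k7: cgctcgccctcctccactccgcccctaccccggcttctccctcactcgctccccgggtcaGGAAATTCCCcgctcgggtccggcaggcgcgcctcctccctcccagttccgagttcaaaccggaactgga
Rel: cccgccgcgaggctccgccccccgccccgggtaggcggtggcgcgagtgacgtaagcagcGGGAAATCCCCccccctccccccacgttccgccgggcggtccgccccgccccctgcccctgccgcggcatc
Il1r1: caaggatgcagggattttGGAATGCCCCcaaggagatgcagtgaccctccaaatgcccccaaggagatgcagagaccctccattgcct
Nfkbia: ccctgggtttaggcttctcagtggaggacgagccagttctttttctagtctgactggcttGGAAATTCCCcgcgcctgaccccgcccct
Of these 6 genes 4 were called higher and 2 were called lower in transgenic cells at the brightest probe set. The probe sets of Map3k7, counted as lower, disagreed in direction, as given below. Among genes with a window, 6 of 10 that rose, 2 of 3 that fell and 7 of 24 that did not pass held a match. Bcl3 has its match after the start, in transcribed sequence, and it is not shown. Tnfaip2, which came before Nfkbia in order of p, has a match that begins at base -24 from its start, and it is not shown. Tlr2 has a further match that begins at base -8 and runs across its start, also not shown.

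Among the 44 genes, 10 were higher and 3 were lower in transgenic hepatocytes, by limma at a Benjamini-Hochberg adjusted p under 0.05 over all genes. The share that rose was 22.7%, where 6.83% of all genes tested rose, and the share that fell was 6.82%, where 9.05% of all genes fell. The rises were small, from 0.21 to 0.71 on the log2 scale, and the falls ran from -0.30 to -0.37. The risen genes were receptors, feedback inhibitors and effector targets, while the fallen genes were 2 signalling proteins and 1 subunit. Map3k7, 1 of these signalling proteins, had probe sets called in both directions. The differences between these roles were not tested. The median difference was 0.09 for the 44 genes and 0.01 for all genes. Over all genes, 34.5% had no overlap between the arrays of both genotypes. Of the 44, 16 had every transgenic array above every wild-type array (36.4%, against 16.9% of all genes) and 5 had every transgenic array below (11.4%, against 17.6%).

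Fewer of the 44 genes passed as higher when any 1 array was left out, and so did fewer of all genes (540 to 739, against 846). How much of this came from the smaller number of arrays was not tested. Without wild-type replicate 2, 4 of the 44 (9.09%) passed as higher and 0 as lower. In that fit 4.57% of all genes passed as higher and 6.25% as lower. Leaving out transgenic replicate 1 or wild-type replicate 3 gave 5 higher (11.4%, against 4.36% and 4.61% of all genes). Leaving out transgenic replicate 2 or 3 gave 1 lower, where 6.25% and 5.98% of all genes fell. No called gene changed sign under any of 16 alternatives. Tlr2, Bcl3 and Il1b passed under every alternative that gave them a value, which was 16 for the first pair and 14 for Il1b.

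**Figure D1:**
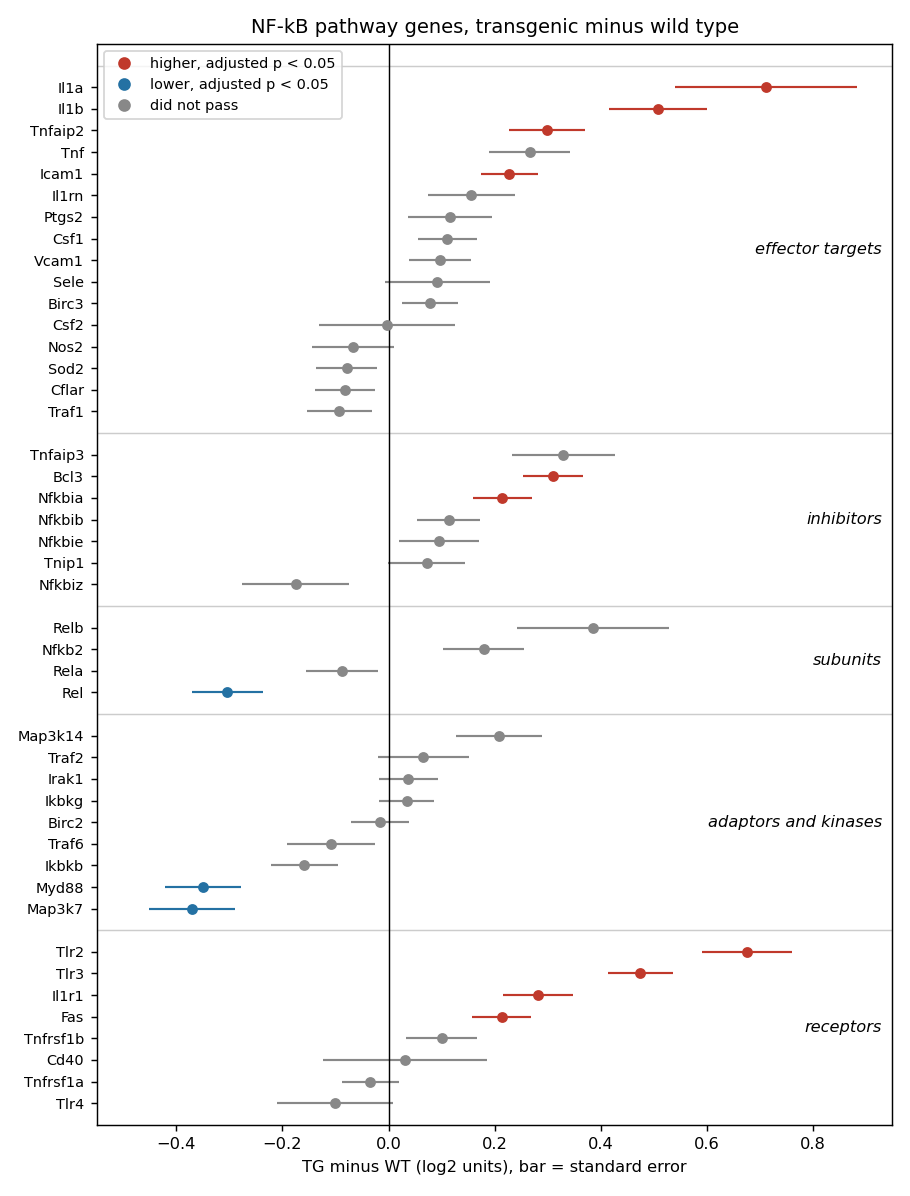
Difference between transgenic (TG) and wild-type (WT) hepatocytes for each of the 44 measured genes (horizontal axis, log2 units), grouped by role, with the standard error from limma as bars. The 10 risen genes (red) are receptors, inhibitors and effector targets, and the 3 fallen genes (blue) are Map3k7, Myd88 and Rel.

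Of 8 measured receptors, 4 rose (Tlr2, Tlr3, Il1r1 and Fas), which is 50%, where 6.83% of all genes rose. Of the 8 receptors, 0 fell (0 at an unadjusted p under 0.05 also), and the median difference was 0.16. Without transgenic replicate 1 or 2, or wild-type replicate 2 or 3, 2 of them passed. In those fits 4.36% to 4.74% of all genes rose. Tlr2, the receptor for bacterial lipoproteins (probe set 1419132_at), read 8.31, 8.44 and 8.12 on the transgenic arrays and 7.56, 7.67 and 7.60 on the wild-type arrays. All transgenic values lay well above all wild-type values, a 1.60-fold rise (0.68, SE 0.08, adjusted p = 0.00152). Over the 16 alternatives its adjusted p ran from 8.59e-06 to 0.00924. Tlr3, the receptor for double-stranded RNA (probe set 1422782_s_at), read 5.36, 5.24 and 5.28 against 4.75, 4.84 and 4.86. The groups did not overlap, although both genotypes lay under 5.63, the median of the arrays, in a range close to background. The difference was 0.47 (SE 0.06, adjusted p = 0.00164), and the other Tlr3 probe set gave 0.22. That probe set alone, used where probe sets that can match several transcripts are left out, did not pass (adjusted p = 0.209, with a range over the alternatives from 0.00124).

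Il1r1, the signalling receptor for interleukin-1, read 10.38, 10.40 and 10.22 in transgenic cells and 10.10, 10.04 and 10.02 in wild-type cells. The lowest transgenic array was above the highest wild-type array, and the means differed by 0.28 (SE 0.07, adjusted p = 0.0241). It passed under 12 of 16 alternatives (adjusted p from 0.000706 to 0.0852), and failed without transgenic replicate 1 or 2 or wild-type replicate 2 or 3, where the difference lay between 0.25 and 0.27. Fas, the death receptor, read 8.68, 8.66 and 8.76 against 8.46, 8.47 and 8.53. Its groups did not overlap and the difference was 0.21 (SE 0.06, adjusted p = 0.0378). That call was lost when any single array was left out (adjusted p from 0.0657 to 0.116, differences from 0.18 to 0.24).

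The tumour necrosis factor receptors did not pass. Tnfrsf1a, which carries most signalling to NF-kB, was at 9.43 ± 0.04 against 9.47 ± 0.03 (SD, n = 3 per genotype), and Tnfrsf1b was at 7.28 ± 0.07 against 7.18 ± 0.08. Cd40, the receptor for the T cell ligand that drives the alternative pathway, was at 5.44 ± 0.24 against 5.41 ± 0.26. On average it lay under the array median in both genotypes. Tlr4, the receptor for bacterial lipopolysaccharide, was at 4.10 ± 0.22 against 4.20 ± 0.09, under the array median in both genotypes. Differences of these 4 receptors ran from -0.10 to 0.10.

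**Figure D2:**
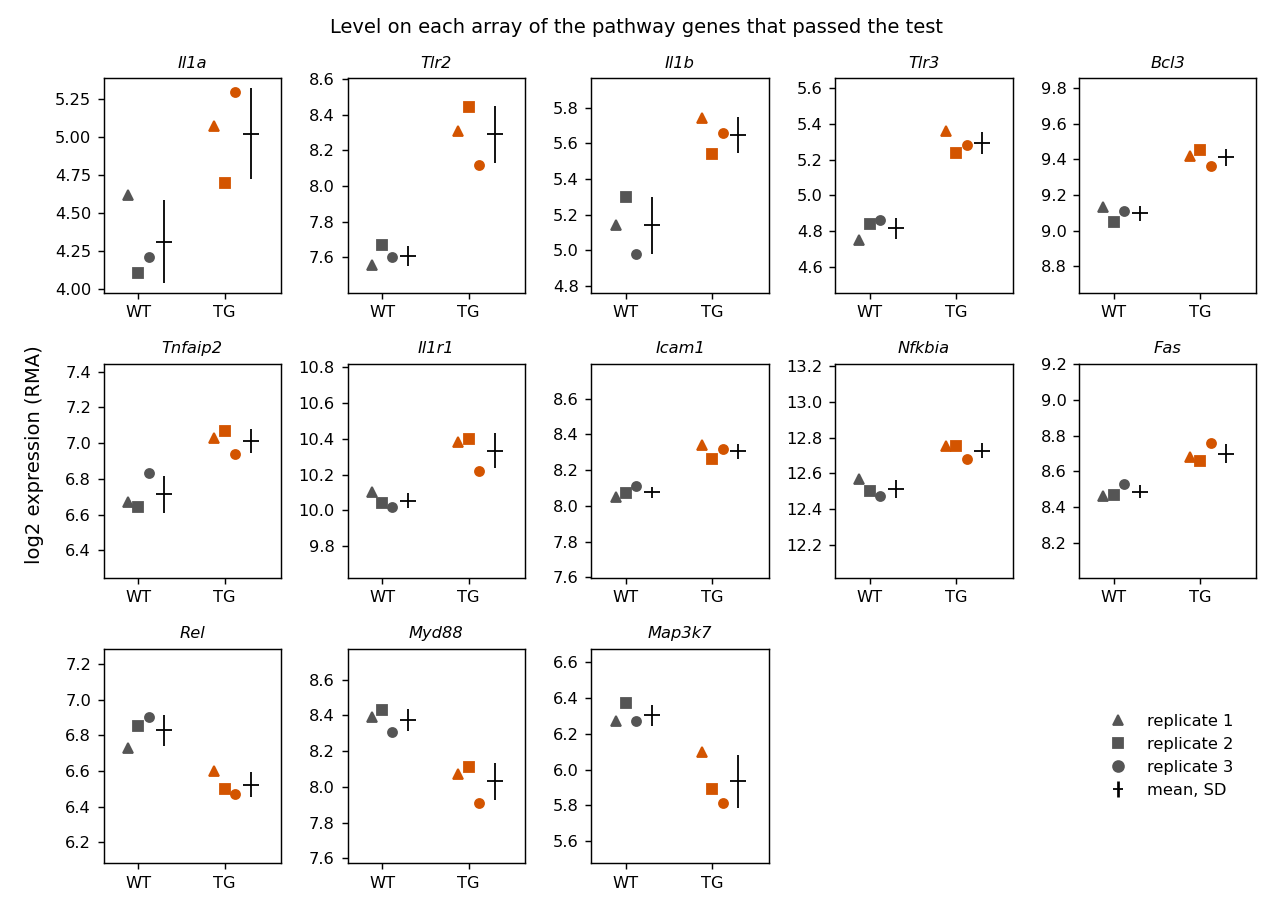
Level on each array (vertical axis, log2 expression) of the 13 genes that passed the test, with wild type (WT) in grey, transgenic (TG) in orange, a symbol for each replicate and the mean with SD in black. The arrays of the genotypes are separate in every panel, and the gap is narrow for Il1a, with 4.70 in transgenic replicate 2 and 4.62 in wild-type replicate 1.

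Adaptors, ubiquitin ligases and kinases had differences of both signs, 4 positive and 5 negative. Of 9 measured, 2 fell (Myd88 and Map3k7), and 0 rose (1, Map3k14, at an unadjusted p under 0.05), with a median difference of -0.02. The share that fell was 22.2%, where 9.05% of all genes fell. It includes Map3k7, whose probe sets disagreed in direction, as given below. Myd88, the adaptor that toll-like and interleukin-1 receptors share, read 8.07, 8.11 and 7.91 in transgenic cells and 8.39, 8.43 and 8.31 in wild-type cells. Every transgenic array was below every wild-type array, a 1.27-fold decrease (-0.35, SE 0.07, adjusted p = 0.0140). It failed only without wild-type replicate 2, where the difference was -0.32 (adjusted p = 0.0538, with a range over 16 alternatives from 0.000897).

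Map3k7 encodes TAK1, the kinase that activates the IkB kinase complex, and its brightest probe set (1455441_at) read 6.10, 5.89 and 5.81 against 6.27, 6.37 and 6.27. These groups did not overlap, and the difference was -0.37 (SE 0.08, adjusted p = 0.0188). The 5 Map3k7 probe sets disagreed. Probe set 1419988_at also passed as lower (-0.58, adjusted p = 0.00366 over all probe sets), 1426627_at passed as higher (0.69, adjusted p = 0.00237) at a mean level of 3.31, and the remaining pair gave -0.08 and 0.02. The mean of the 5 probe sets gave a difference of -0.06 (adjusted p = 0.433, with a range over the alternatives from 0.00578). The call was also lost without transgenic replicate 2 or 3 or wild-type replicate 2, with differences between -0.45 and -0.31 over the arrays left out.

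The IkB kinase complex was represented by Ikbkb, its main catalytic subunit in the classical pathway, and Ikbkg, the scaffold subunit NEMO. Ikbkb read 8.12, 8.20 and 8.17 in transgenic cells and 8.25, 8.42 and 8.29 in wild-type cells. The groups did not overlap, yet the difference of -0.16 (SE 0.06) did not pass (adjusted p = 0.142). The other Ikbkb probe sets gave 0.13, -0.14 and -0.27 and did not pass. Ikbkg read 8.67, 8.64 and 8.68 against 8.62, 8.60 and 8.65 at its brightest probe set, and these values overlapped. The difference there was 0.03 (adjusted p = 0.722), while the other 3 Ikbkg probe sets gave 0.22, 0.29 and 0.33, of which the last passed over all probe sets (adjusted p = 0.00999). As the mean of its 4 probe sets Ikbkg was 0.22 higher (adjusted p = 0.0237, with a range over the alternatives up to 0.853).

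The other signalling genes had differences from -0.11 to 0.21 and did not pass. Map3k14, the kinase NIK of the alternative pathway, was at 5.96 ± 0.08 against 5.76 ± 0.14 (SD, n = 3), and both of its probe sets gave 0.21. It passed only without wild-type replicate 1 (difference 0.28, adjusted p = 0.0447, with a range over the alternatives up to 0.324). Traf6, the ubiquitin ligase that acts downstream of Myd88, was at 5.42 ± 0.11 against 5.53 ± 0.12. Irak1, the kinase between them, was at 8.46 ± 0.04 against 8.42 ± 0.05. Traf2 and Birc2, which act together below the tumour necrosis factor receptors, gave 0.07 and -0.02.

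Of the NF-kB subunits, 4 of 5 were measured, and 1 fell (Rel) and 0 rose (Nfkb2 and Relb at an unadjusted p under 0.05, 2 in all). The share that fell was 25%, where 9.05% of all genes fell. Rel, the c-Rel subunit best known from lymphocytes, read 6.60, 6.50 and 6.47 in transgenic cells and 6.73, 6.85 and 6.90 in wild-type cells. All 3 transgenic values were below the wild-type values, a 1.23-fold decrease (-0.30, SE 0.07, adjusted p = 0.0192). It passed under 11 of 16 alternatives (adjusted p from 0.00522 to 0.0682), and was lost without transgenic replicate 2 or 3 or wild-type replicate 2 or 3, with differences from -0.35 to -0.27 over the arrays left out. Rela, which encodes p65, read 8.72, 8.78 and 8.70 against 8.77, 8.95 and 8.75. The values overlapped, with a difference of -0.09 (SE 0.07, adjusted p = 0.455).

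Relb and Nfkb2 encode the subunits of the alternative pathway and are themselves known NF-kB targets. Relb read 5.67, 5.26 and 5.87 in transgenic cells and 5.22, 5.32 and 5.11 in wild-type cells. Transgenic replicate 2 lay among the wild-type values, and the difference of 0.38 (SE 0.14) did not pass (adjusted p = 0.117). Without that array the difference was 0.56 (adjusted p = 0.0108, with a range over the alternatives up to 0.279). On average Relb lay under the array median in both genotypes. Nfkb2 read 6.63, 6.55 and 6.50 against 6.49, 6.24 and 6.41, a narrow separation with a difference of 0.18 (SE 0.08, adjusted p = 0.168). Its other probe set gave 0.09.

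Inhibitors of the pathway gave 2 risen (Nfkbia and Bcl3) and 0 fallen of 7 measured (0 lower at an unadjusted p under 0.05 also), with a median difference of 0.11. The share that rose was 28.6%, where 6.83% of all genes rose. Without transgenic replicate 2 or 3 or wild-type replicate 2 or 3, 1 inhibitor passed. In those fits 4.57% to 4.74% of all genes rose. The transgenic arrays lay above the wild-type arrays without overlap for 4 of the 7 (57.1%, against 16.9% of all genes). Nfkbia, which encodes IkB-alpha, read 12.75, 12.75 and 12.68 in transgenic cells and 12.57, 12.50 and 12.47 in wild-type cells. The separation was clear but small, 1.16-fold (0.21, SE 0.06, adjusted p = 0.0370). All 4 Nfkbia probe sets pointed the same way, at 0.21, 0.28, 0.27 and 0.31, and 3 of them passed over all probe sets (the brightest had an adjusted p of 0.0512). The call at the brightest probe set was lost on leaving out any array but wild-type replicate 1, with differences from 0.19 to 0.24. Over the 16 alternatives its adjusted p ran from 0.000381 to 0.118.

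Bcl3, a nuclear IkB protein that can also act as a coactivator, read 9.42, 9.45 and 9.36 in transgenic cells and 9.13, 9.05 and 9.11 in wild-type cells. Its groups stood apart by more than the spread of either, a 1.24-fold rise (0.31, SE 0.06, adjusted p = 0.00842). The adjusted p over its 16 alternatives ran from 0.000206 to 0.0362. Tnfaip3, which encodes A20, the deubiquitinase that ends signalling, read 5.19, 5.55 and 5.24 against 4.98, 5.06 and 4.95. The arrays did not overlap, but the values lay under the array median and the difference of 0.33 (SE 0.10) did not pass (adjusted p = 0.0558). It passed under 4 of 15 alternatives, with an adjusted p between 0.0376 and 0.154. Among these was the fit without transgenic replicate 1, where the difference was 0.40.

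The remaining inhibitors did not pass. Nfkbib, which encodes IkB-beta, gave 0.11 with no overlap of the arrays, and Tnip1, which partners A20, gave 0.07. Nfkbie, at 3.63 ± 0.02 against 3.53 ± 0.14 (SD, n = 3), was near background. Nfkbiz, an inducible nuclear IkB protein, was at 8.68 ± 0.07 against 8.86 ± 0.20, the only inhibitor whose mean was lower in transgenic cells.

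Effector targets gave 4 risen (Il1a, Il1b, Tnfaip2 and Icam1) and 0 fallen of 16 measured (0 lower at an unadjusted p under 0.05 also), with a median difference of 0.10. The share that rose was 25%, where 6.83% of all genes rose. Without transgenic replicate 1 or wild-type replicate 2 the count of risen targets was 1, and without wild-type replicate 1 or 3 it was 2. In those fits 4.36% to 5.96% of all genes rose. Il1b, the secreted interleukin-1 beta, read 5.74, 5.54 and 5.66 in transgenic cells and 5.14, 5.30 and 4.98 in wild-type cells. The groups did not overlap, a 1.42-fold rise (0.51, SE 0.09, adjusted p = 0.00818), with an adjusted p from 0.00186 to 0.0326 over 14 alternatives. Il1a, its partner cytokine that is also released from damaged cells, read 5.07, 4.70 and 5.29 against 4.62, 4.11 and 4.21. The difference was 0.71, with a wide error (SE 0.17, adjusted p = 0.0279). Leaving out transgenic replicate 1 or 3 or wild-type replicate 2 or 3 ended the call (differences from 0.58 to 0.87 over the arrays left out, adjusted p from 0.00304 to 0.0989 over 15 alternatives). Il1a lay under the array median of 5.63 in both genotypes, and Il1b in wild-type cells.

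Tnf, the founding cytokine of the pathway, read 5.45, 5.41 and 5.26 in transgenic cells and 5.16, 4.99 and 5.16 in wild-type cells. The arrays did not overlap, and the difference of 0.27 (SE 0.08) just missed the threshold (adjusted p = 0.0505, from 0.0394 to 0.152 over 15 alternatives, of which 4 passed). It passed without transgenic replicate 3, where the difference was 0.32. Tnf lay under the array median in both genotypes. Il1rn, which encodes the interleukin-1 receptor antagonist that hepatocytes secrete, was at 8.59 ± 0.09 against 8.43 ± 0.13 (SD, n = 3) and did not pass.

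Adhesion molecules let leukocytes attach to the vessel wall and to hepatocytes. Icam1, the ligand of leukocyte integrins, read 8.34, 8.26 and 8.32 in transgenic cells and 8.05, 8.07 and 8.11 in wild-type cells. Its arrays were cleanly separated. The means differed by 0.23 (SE 0.05, adjusted p = 0.0257), and the gene passed under 10 of 16 alternatives (adjusted p from 0.00578 to 0.0954). It was lost on leaving out transgenic replicate 1 or 3 or any wild-type array, with differences from 0.21 to 0.25. Vcam1 did not pass at its brightest probe set (0.10, adjusted p = 0.327), where the values were 7.47 ± 0.07 against 7.38 ± 0.03 (SD, n = 3). Its other probe sets gave 0.43, which passed over all probe sets (adjusted p = 0.0309), and 0.21. The mean of the 3 passed at 0.25 (adjusted p = 0.0185, with a range over the alternatives up to 0.569). Sele, the selectin of activated endothelium, was at 3.80 ± 0.05 against 3.71 ± 0.20 and near background in both genotypes.

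Tnfaip2, a target named for its response to tumour necrosis factor, read 7.03, 7.07 and 6.94 against 6.67, 6.64 and 6.83. The groups did not overlap, and both of its probe sets gave 0.30 (SE 0.07 at the brightest, adjusted p = 0.0273). It passed under 11 of 16 alternatives (adjusted p from 0.00838 to 0.0878). The call ended without transgenic replicate 1 or 2 or wild-type replicate 1 or 2, where all leave-out differences lay between 0.26 and 0.36.

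Survival and antioxidant targets did not pass. Birc3, an inhibitor of apoptosis, gave 0.08, and Cflar, which encodes the caspase-8 inhibitor c-FLIP, gave -0.08. Sod2, the mitochondrial superoxide dismutase, was at 12.06 ± 0.03 against 12.14 ± 0.06 (SD, n = 3), and Traf1 gave -0.09. Among inducible mediators, Nos2, the inducible nitric oxide synthase, was at 3.95 ± 0.02 against 4.01 ± 0.14, and Ptgs2, which encodes cyclooxygenase-2, was at 3.35 ± 0.03 against 3.23 ± 0.15. Csf2 was at 4.78 in both genotypes. These 3 lay under the array median of 5.63. Csf1, the macrophage growth factor, gave 0.11 at its brightest probe set with no overlap, and another of its 4 probe sets passed over all probe sets (0.32, adjusted p = 0.0474).

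**Figure D3:**
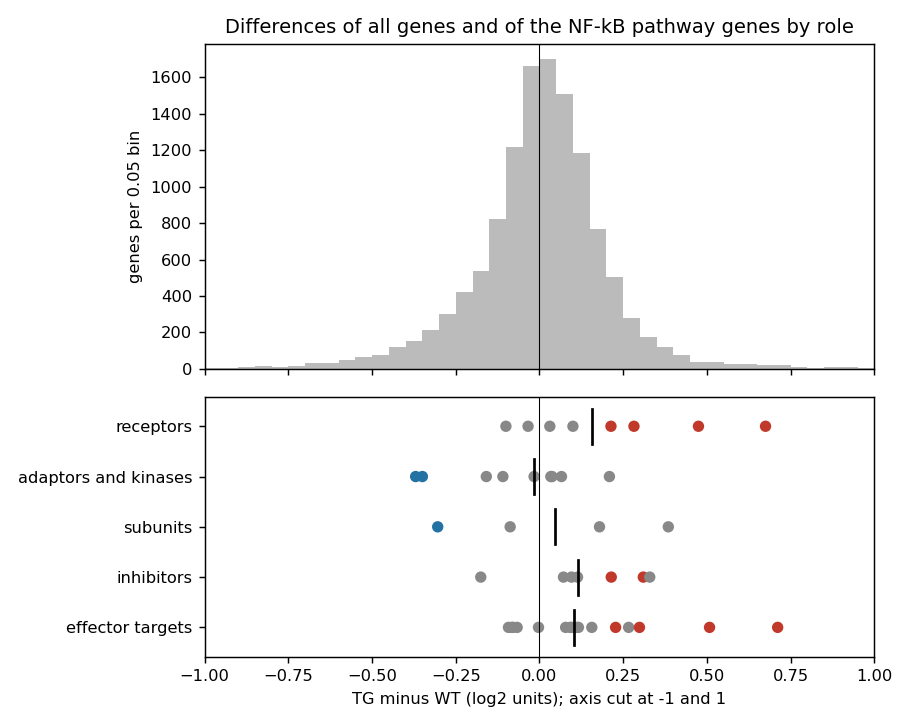
Upper panel, the number of genes per bin of the transgenic minus wild-type difference (log2 units) for all genes, with 93 genes beyond the ends of the axis. Lower panel, each of the 44 pathway genes by role on the same axis, red for higher, blue for lower, grey for not passed, with the role's median as a black line. The medians are 0.16 for receptors, -0.02 for adaptors and kinases, 0.05 for subunits, 0.11 for inhibitors and 0.10 for effector targets.

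Probe sets of a gene can read different parts of its transcripts, and 21 of the 44 genes had more than 1. For 11 of these every probe set had a positive difference, among them Nfkbia, Tnfaip2, Tlr3, Map3k14, Csf1 and Vcam1. For 1 gene every probe set was negative, and 9 genes had probe sets of both signs. Map3k7 was the one gene with probe sets called in opposite directions. Ikbkg, Vcam1 and Csf1 each had a dimmer probe set that passed as higher while the brightest did not.

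**Figure D4:**
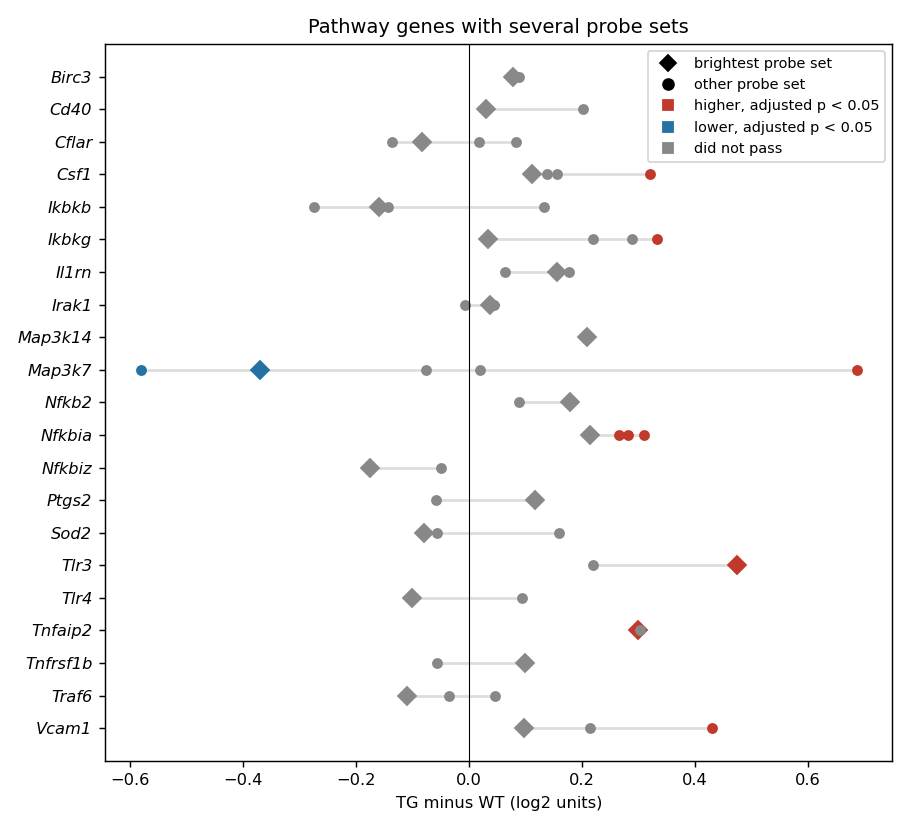
Transgenic minus wild-type difference (log2 units) of each probe set of the 21 genes with several, diamonds for the brightest and circles for the others. Colours give calls adjusted over all probe sets, under which the brightest Nfkbia probe set has an adjusted p of 0.0512. Map3k7 spans from -0.58 to 0.69, the widest range shown.

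Other genes of the pathway, from a written list of 59 of which 46 were measured, gave 6 risen (13.0%, against 6.83% of all genes) and 4 fallen (8.70%, against 9.05%). Their median difference was -0.01. Tifa, an adaptor that works through Traf6, rose by 0.94 (SE 0.07, adjusted p = 8.97e-05), at 8.92 ± 0.11 against 7.98 ± 0.03 (SD, n = 3). Peli1, a ubiquitin ligase of toll-like and interleukin-1 receptor signalling, fell from 8.49 ± 0.08 to 7.80 ± 0.03, a difference of -0.69 (adjusted p = 0.000281). Of the lipopolysaccharide sensing genes, Cd14, the coreceptor, fell (-0.45, adjusted p = 0.00149), while Lbp, the binding protein that hepatocytes secrete, rose (0.41, adjusted p = 0.00349).

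Chemokine targets of NF-kB stood outside the list and were measured as a reference for size. Of 14 measured, 9 rose (64.3%, against 6.83% of all genes) and 0 fell (0 lower at an unadjusted p under 0.05 also). Their differences reached 1.89, where the 44 genes reached 0.71. Interferon response genes gave 13 risen (76.5%) and 1 fallen (5.88%, against 9.05% of all genes) of 17 measured, with a median of 0.53. Many of these chemokines answer to interferon as well as to NF-kB, and what drives any of the genes was not tested.

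Markers of macrophages and endothelium were also higher in part, and several of the risen genes, such as Tlr2, Il1b, Il1a and Icam1, are known to be expressed in those cells. Of 17 measured Kupffer cell and macrophage markers, 4 rose and 1 fell, while 15 had a positive difference. Those that rose were Marco (0.69), Ptprc (0.61), Mrc1 (0.46) and C1qc (0.35), and Cd163 fell (-0.31). The share that rose was 23.5% (against 6.83% of all genes) and the share that fell was 5.88% (against 9.05%). For 9 of the 17 every transgenic array was above every wild-type array (52.9%, against 16.9% of all genes). Their summed level on the log2 scale was 10.70 to 10.75 on the transgenic arrays and 10.50 to 10.64 on the wild-type arrays. Of the 17, 12 did not pass. Among them C1qa, C1qb, Vsig4 and Lyz2 had every transgenic array above every wild-type array (differences from 0.10 to 0.30). The markers given next also did not pass. They were chosen after their values were seen, as those best known for these cells, and do not stand for the list. Cd68 was at 7.21 ± 0.04 against 6.99 ± 0.15 with no overlap of the arrays. Adgre1 was at 6.60 ± 0.17 against 6.45 ± 0.12, Clec4f at 6.80 ± 0.06 against 6.74 ± 0.18 and Csf1r at 7.83 ± 0.04 against 7.93 ± 0.10 (SD, n = 3). Of 14 sinusoidal endothelium markers, 2 rose (Clec4g and Kdr, 14.3%, against 6.83% of all genes) and 0 fell (0 lower at an unadjusted p under 0.05 also). Their summed level was 10.07 to 10.18 against 9.84 to 10.00. The endothelial marker Pecam1 was at 3.59 ± 0.07 against 3.50 ± 0.14, near background. Of the 14 endothelial markers, 11 had a positive difference, Pecam1 among them. In RNA from a whole sample, a different number of cells of a type and a different level per cell cannot be told apart, and the part of these cells in the results was not tested.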

How the data were processed

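Total RNA from 6 samples was hybridised to Affymetrix mouse arrays. The deposited log2 values are RMA summaries per probe set that the authors made, per the submitters' processing notes, with Affymetrix Expression Console. RMA equalises the distributions of the arrays, so values show change relative to other genes, and differences at very low signal are compressed. The sources used here give no version.

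Of 22690 probe sets, 20380 carried 1 gene symbol in the platform annotation, 691 several, 1555 none and 64 were controls. Only those with 1 symbol were used, and 20351 matched RefSeq assembly GRCm38.p6 by gene identifier. The brightest probe set by mean represented each of 12393 genes. Genotypes were compared with limma 3.58.1 in R 4.3.3 (lmFit, eBayes, two-sided, Benjamini-Hochberg over all genes, threshold 0.05), tables read by data.table (version 1.17.8) and differences given as transgenic minus wild type. The labels name biological replicates but not separate animals, so the spread behind each p-value may be technical. The number of arrays limits the precision.

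All 44 measured genes were named by rule. Values on each array were given for those past the threshold and for a core of the pathway, other lists by their smallest p. The genes and lists (roles, other pathway genes, chemokines, interferon response and markers of 8 cell types) were chosen with earlier results of these data known, so list counts are descriptions and no list was tested. On simulated data of 12393 genes with the spread of these samples, 68% of 200 genes shifted by 0.5 and 96.5% of 200 shifted by 1 were recovered, with 5 and 9 false calls, and 0 calls were made with no shift. Shifts between 0 and 0.5 were not simulated, and the median absolute difference of the 44 genes was 0.11, so recovery at that size is not known. Alternatives changed the probe set rule, filter, scaling, variance prior, array weights, replicate block and the arrays included.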

Additional observations from a re-analysis of the deposited data

How the results depend on the processing

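Calls were few per role, so small changes moved counts. When probe sets of a gene were averaged, 1 signalling gene was higher and 1 lower. With every probe set tested, 1 inhibitor was higher. Among genes above the array median only, 2 effector targets were higher, since 8 of 16 lie below it. With a variance trend 1 subunit was higher. Other causes were not tested. On leaving out each array in turn, the 44 genes gave 4 to 8 higher and 0 to 3 lower, receptors 2 to 3 higher, signalling genes 0 to 1 higher and 0 to 2 lower, subunits 0 to 1 higher and 0 to 1 lower, inhibitors 1 to 2 higher and effector targets 1 to 3 higher. All genes gave 540 to 739 higher and 727 to 961 lower, lowest without transgenic replicate 1. Mtdh passed throughout.

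Same-numbered arrays showed no consistent pairing, as their deviations correlated at -0.01, -0.01 and 0.10. Only transgenic replicate 3 correlated best with its own number. With 3 arrays per genotype such correlations cannot exclude pairing. With the replicate block, 7 of the 44 were higher and 2 lower, with 2 effector targets higher and 0 subunits lower. Its lost calls were Fas, Nfkbia, Icam1, Tnfaip2 and Rel (adjusted p from 0.0594 to 0.0748), Tnfaip3 passed (adjusted p = 0.0459), and all genes gave 640 higher and 865 lower. Of 13 called genes, 3 kept their call under every alternative with a value and 10 lost it under at least 1. A further 6 passed under some alternative.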

Other observations

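Other cell types were covered by short marker lists. Of 13 measured stellate cell markers 1 rose (Lum, 0.20, adjusted p = 0.0442 by limma) and 0 fell. The share that rose, 7.69%, was near the 6.83% of all genes, and Lum lay under the array median in both genotypes. Of 5 cholangiocyte markers 1 rose (Epcam, 1.52, adjusted p = 5.24e-05), which is 20%, against 6.83% of all genes. Of 6 B cell markers 1 fell (Ighm, -1.80, adjusted p = 6.01e-06), which is 16.7%, against 9.05% of all genes. Ighm was read at the brightest of its 11 probe sets, and the others are not given here. The other cholangiocyte markers did not pass, with differences from -0.03 to 0.36, nor did the other B cell markers, from -0.14 to 0.23. On average 4 of the 5 cholangiocyte markers and 5 of the 6 B cell markers lay under the array median, so each list rests on 1 gene. By limma, 0 of 9 neutrophil markers changed (0 at an unadjusted p under 0.05) and 0 of 11 T and NK cell markers changed (1 at an unadjusted p under 0.05). Of all genes, 15.9% changed. All 9 neutrophil markers and 9 of the 11 T and NK cell markers lay under the array median on average.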
